A study of Mus musculus with 127 samples.

Results

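Microglia are the resident immune cells of the brain, and 30 genes that mark them were followed through every fraction of mouse cortex in a study of the autism-associated chromatin remodeler Chd8. The genes came from a fixed list of symbols, chosen with earlier results of these data known. All 30 were found among the 54838 gene rows that the count tables share. Each member had counts above 0 in all 123 libraries analysed, with a lowest count of 10, and each passed the filter on low counts in all 17 comparisons.

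Microglia survey the tissue with motile processes, sense purines released by cells through P2Y receptors, bind the neuronal chemokine fractalkine through Cx3cr1, and depend on Csf1r signalling for survival. In the cortex they are known for engulfing debris and synaptic material, for which the complement protein C1q can act as a tag. Most of the 30 genes are shared with macrophages at the borders of the brain, whereas Tmem119, P2ry12, Sall1, Siglech, Fcrls and Olfml3 are commonly used to tell microglia from other macrophages.

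The tissue was cortex of mice at about 60 days of age, described by the labels as mixed cortical cells, so microglia were never sorted. In the germline line, WT littermates were compared with HET mice carrying a 5 bp deletion on 1 Chd8 allele in every cell. That line gave whole cortex (15 WT, 16 HET), a nuclear fraction (12 WT, 9 HET), a synaptic fraction (11 WT, 7 HET) and a cytosolic fraction (5 WT, 7 HET). In the conditional line, the fractions came from mice that all carried Camk2a-CRE and had Chd8+/+ (WT), Chd8+/flox (HET) or Chd8flox/flox (HOM) alleles. There were 4 WT, 6 HET and 3 HOM nuclear libraries and 4 WT, 5 HET and 5 HOM synaptic libraries. The Camk2a promoter is known to drive Cre in excitatory forebrain neurons and not in microglia; where Cre acted was not measured here. Whole cortex of that line compared Chd8+/flox mice without Cre (8) and with Camk2a-CRE (6), so Cre and deletion cannot be told apart there. The labels name each library as a biological replicate but not its culture or litter, so p-values measure the spread between these libraries. Because the libraries are bulk, fewer microglia and less RNA per microglial cell cannot be told apart.

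Deposited gene counts summed to 19.002 to 30.5 M (M for mega) per library in germline cortex, 98.1 to 134.6 M in conditional cortex and 23.2 to 56.6 M in the fractions. Chd8 itself, in CPM (counts scaled to each library's total), ran from 65.9 to 112 in 15 WT and from 41.7 to 81.3 in 16 HET germline cortex libraries, a log2 difference of -0.58 ± 0.08 (SE; adjusted p = 7.89e-05, edgeR). In the nuclear fractions its levels overlapped between genotypes (94.3 to 147 CPM in germline HET against 91.98 to 131 in WT). In the germline synaptic and cytosolic fractions the Chd8 differences were -0.82 and -0.43 (adjusted p = 0.308 and 0.92, edgeR). In the conditional line Chd8 passed no test. It ran from 48.1 to 96.9 CPM in cortex without Cre and from 37.2 to 66.6 with Cre. Synaptic libraries held 51.8 to 67.8 CPM in WT and 28.05 to 61.3 in HOM. Its log2 differences were -0.52 in cortex, -0.06 in HET and -0.47 in HOM nuclei, and -0.21 in HET and -0.57 in HOM synaptic libraries. Some libraries stood apart before any test. Synaptic WT male 1 and WT male 2 of the germline line held 31682.8 and 33218.5 CPM of 10 nuclear-retained RNAs against 1198 to 3427 in the other WT synaptic libraries, and 1064 and 1059.8 CPM of endothelial and mural markers against 144 to 217. Sex-marker genes went against the label in 2 germline nuclear libraries (HET female 4 and WT male 7), and the labels of 1 conditional animal disagreed, with HET for the nuclei and HOM for the synaptic fraction.

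The genes sit on many chromosomes, with a few neighbours. In GRCm38, the C1q chains stand side by side on the minus strand of chromosome 4 (C1qb at chr4:136880129-136886187, C1qc at chr4:136889804-136893065, C1qa at chr4:136895917-136898803). The purine receptors P2ry13 (chr3:59207892-59210882) and P2ry12 (chr3:59216272-59262871) both lie inside Med12l, and Tmem119 (chr5:113793729-113800516) lies near Selplg (chr5:113818536-113832644). Cx3cr1 spans chr9:119901616-120069879, Trem2 chr17:48346401-48354147, Tyrobp chr7:30413760-30417585 and Ctss chr3:95526786-95556403. Other genes overlapped 11 members, exon on exon for 4 of them (Cx3cr1, P2ry12, Csf1r and Itgam), and 5 members lie inside another gene. The counting is not stated to use strand, so reads of such overlaps cannot be told apart. Med12l, the host of both purine receptors, had a log2 synaptic to nuclear difference of -0.27 in germline WT and -0.19 in conditional WT animals (adjusted p = 0.258 and 0.185), so its own direction was not resolved.

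Spi1 (PU.1) is the lineage factor of microglia and binds purine-rich sites with a GAGGAA core. The letters GAGGAAGT were therefore looked for on both strands of RefSeq promoters (GRCm38.p6, 300 bases, 250 before to 50 after the start), which held 28 promoters of 23 members and none for 7. The letters were found in 3 member promoters (10.7%) and in 1052 of all 32851 promoters of that length (3.2%). The stretches around the 3 matches are shown because they include Ctss and C1qc, which the results turn on. Each is written 5′ to 3′ on its gene's strand with the match in capitals, where it reads ACTTCCTC since it lies on the other strand. The match begins at base -2 from the start of Ctss (chr3:95526744-95526805, plus strand), at base 7 of Cd53 (chr3:106790130-106790183, minus strand) and at base -195 of C1qc (chr4:136893062-136893149, minus strand). Bases are counted from the RefSeq start, which for C1qc lies inside the gene span given above from GENCODE, so that the stretch overlaps the edge of that span. A match is a description of letters and not a bound site.
Ctss: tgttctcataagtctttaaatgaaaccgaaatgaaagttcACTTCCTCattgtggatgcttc
Cd53: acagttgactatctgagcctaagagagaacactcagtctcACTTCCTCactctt
C1qc: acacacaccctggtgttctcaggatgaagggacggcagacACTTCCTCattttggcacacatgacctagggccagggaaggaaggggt

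In whole cortex the secreted complement chains C1qa and C1qb and a lysosomal protease led the 30 genes. Levels were divided by the annotated exon length of each gene, so genes with many annotated exons rank lower than in CPM. The median over 15 germline WT cortex libraries was 39.0 CPM per kb for C1qa, 38.6 for Ctss (cathepsin S) and 38.1 for C1qb. Their ranges overlapped (30.7 to 56.2, 29.3 to 49.9 and 32.3 to 48.3). Csf1r followed at 24.5, then P2ry12 at 17.6, C1qc at 17.5 and Cx3cr1 at 14.3 CPM per kb, with overlapping ranges for the last 3. The transcription factors Spi1 and Irf8 had medians of 1.53 and 0.893 and the chemokine Ccl6 0.651. Ptprc, which encodes the pan-leukocyte phosphatase CD45, was the lowest at 0.175 CPM per kb. Without division by length, Ccl6 (median 1.17 CPM) lay below Ptprc (3.20 CPM). C1qa, Ctss and C1qb also held the top 3 places in the nuclear fraction (36.3, 34.1 and 33.0 CPM per kb, 12 germline WT libraries) and in the synaptic fraction (51.3, 52.6 and 54.6, 11 libraries). In the conditional line Ctss led with 34.1 CPM per kb in nuclear and 67.7 in synaptic WT libraries, before C1qa at 25.1 and 47.2, whereas in conditional cortex without Cre C1qa was first at 67.1, before C1qb at 64.02 and Ctss at 61.4.

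**Figure D1:**
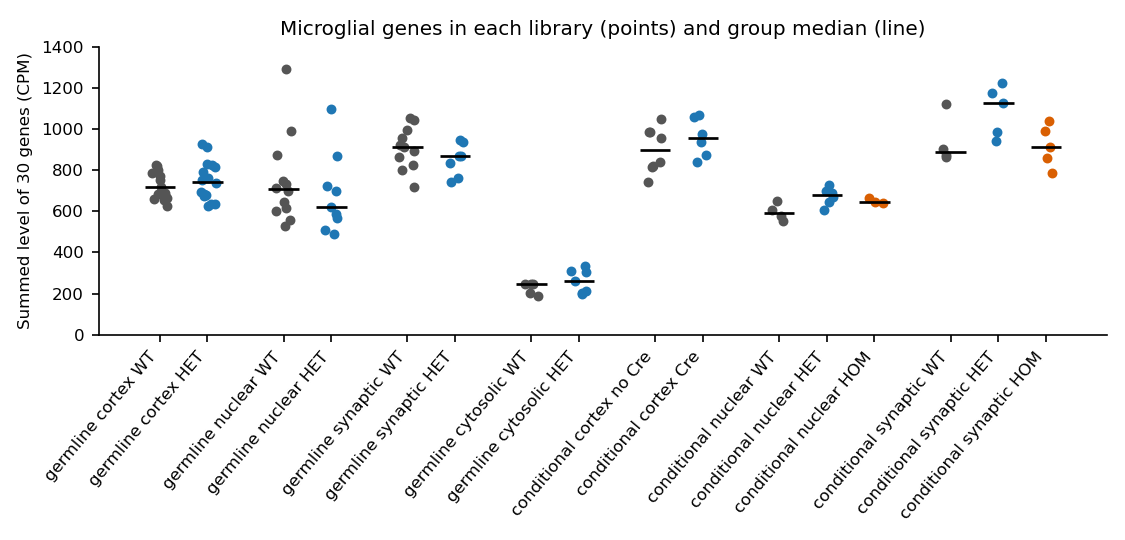
Summed level of the 30 microglial genes in each library, in CPM, by fraction, line and Chd8 genotype; points are libraries and bars are group medians. Cytosolic libraries sit at 186 to 334 CPM, below all libraries of every other fraction, and conditional synaptic libraries (786 to 1223) lie above all conditional nuclear ones (555 to 728).

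Summed over the 30 genes, the microglial level was lowest in the cytosol. It ran from 186 to 334 CPM in 12 cytosolic libraries and from 624 to 927 CPM in 31 germline whole-cortex libraries, so the ranges did not overlap. The germline nuclear libraries spread widest, from 488 to 1294 CPM, and the synaptic ones ran from 719 to 1054 CPM. Group medians of WT and HET were 720.05 and 744 in cortex, 707 and 620.4 in nuclei, 912 and 871 in the synaptic fraction, and 246 and 263 in the cytosol. Cytosolic libraries also held nuclear-retained RNAs. Over both genotypes, the summed median of 10 such RNAs was 6793 CPM there, 5384 in cortex, 1633 in the synaptic fraction and 25190 in nuclei. The tables come from separate preparations and sequencers, so levels across tables are set side by side with no test, except nuclear against synaptic in the same animals.

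The ratio of cytosol to whole cortex ranged widely among the genes. The median cytosolic level of Csf1r was 18.4% of its whole-cortex median in germline WT mice, with libraries at 13.3, 19.05, 22.02, 23.7 and 26.9 CPM in the cytosol against 100.2 to 136 in cortex. C1qa stood at 20.8% (5.80, 7.25, 8.45, 8.92 and 10.1 CPM against 31.9 to 58.4) and Ctss at 22.1% (6.66, 8.92, 11.6, 11.8 and 12.3 against 39.8 to 67.8). None of these cytosolic libraries reached the lowest cortex library. P2ry12, the ADP receptor that steers process movement, stood at 40.04% and the phagocytic receptor Trem2 40.9%. At the other end, Spi1 stood at 77.5% (2.31, 2.80, 3.19, 3.72 and 3.82 CPM), the inhibitory collagen receptor Lair1 at 80.6% (6.96, 6.99, 7.08, 7.48 and 8.87 CPM) and Sall1, a zinc finger factor of microglial identity, at 98.5% (22.2, 26.4, 27.6, 28.5 and 32.5 CPM). Their cytosolic libraries overlapped those of cortex, where Sall1 ran from 22.7 to 39.4 CPM. Aif1, which encodes the cytoskeletal protein Iba1, was the 1 member whose cytosolic median (4.86 CPM) lay above that of cortex (4.35 CPM). Other lists also lay below germline whole cortex in the cytosol, without overlap. Endothelial and mural markers were at 76.6 to 121 CPM (336 to 919 in cortex) and astrocyte markers at 2224 to 3628 (4580 to 7944). Oligodendrocyte markers were at 1584 to 2484 CPM (3406 to 8278) and border macrophage markers at 8.20 to 16.4 (25.6 to 41.1). Neuronal markers lay above cortex, at 12591 to 14468 CPM (10641 to 12188), and markers of other blood cells overlapped. The part of these lists in the difference was not tested.

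**Figure D2:**
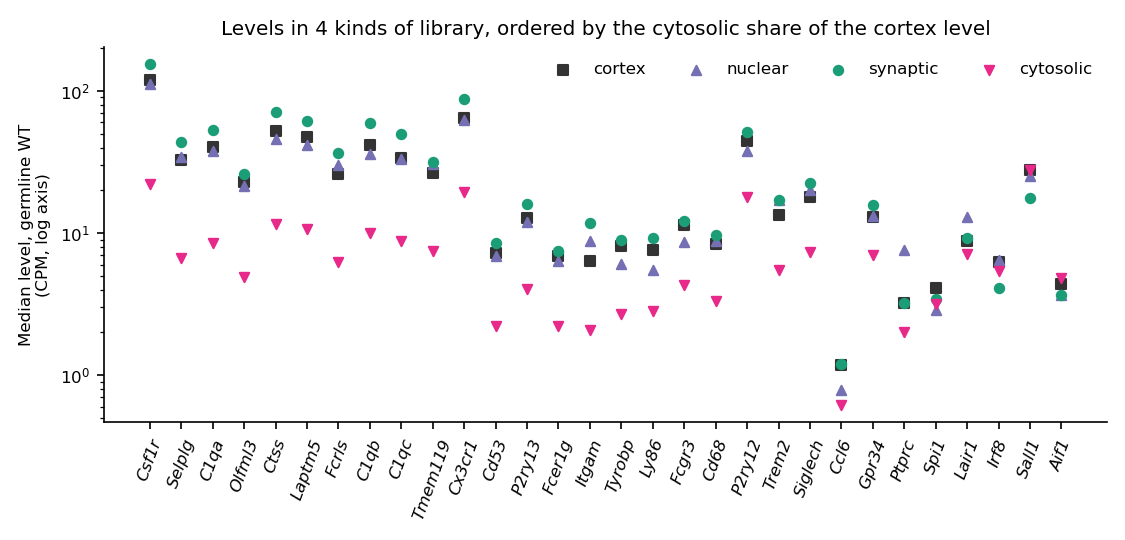
Median level of each microglial gene in germline WT whole cortex, nuclear, synaptic and cytosolic libraries, in CPM on a log axis. Csf1r, C1qa and Ctss are far lower in the cytosol than elsewhere, whereas Sall1, Lair1 and Spi1 are close to their cortex levels.

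Between the synaptic and the nuclear fraction of the same animals, most microglial genes were higher in the synaptic fraction relative to the bulk of genes. In the fit with the animal as a block and TMM scaling, 26 members rose and 1 fell in 10 germline WT animals, where 29.3% of all genes rose and 35.2% fell. The median member difference was 0.81 (log2) beside -0.14 for all genes tested. In 5 germline HET animals 25 rose and 0 fell (26.8% and 36.2% of all genes; median 1.03). In the conditional line 27 rose in 4 WT animals (28.6% of all genes up, 32.9% down; median 1.18), 27 in 5 HET (27.9% and 32.7%; 1.18) and 24 in 3 HOM animals (22.9% and 25.1%; 0.95), with 0 members lower in each. The size of this difference depends on the scaling. With total counts alone the all-gene median moved from between -0.19 and -0.11 to between -0.79 and -0.63. The members called higher and lower were then 8 and 4 in germline WT, 10 and 3 in germline HET, 23 and 2 in conditional WT, 25 and 2 in conditional HET and 17 and 2 in conditional HOM. Over all genes the split of higher and lower calls went from 6306 and 7584 to 2080 and 11670 in germline WT, and was 2135 and 11511 in germline HET and 2375 and 11628, 2314 and 12352, and 1837 and 10076 in conditional WT, HET and HOM. C1qa, C1qb, C1qc, Ctss, Tyrobp and Fcgr3 were called higher in each of the 5 groups under both scalings. Measured from the all-gene median, the members stood 0.95 to 1.33 higher under TMM. Without the 2 WT male synaptic libraries with a nuclear profile, 25 members rose and 1 fell in germline WT (median 0.86); without the animals whose sex markers go against the label these counts were also 25 and 1 (median 0.72).

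**Figure D3:**
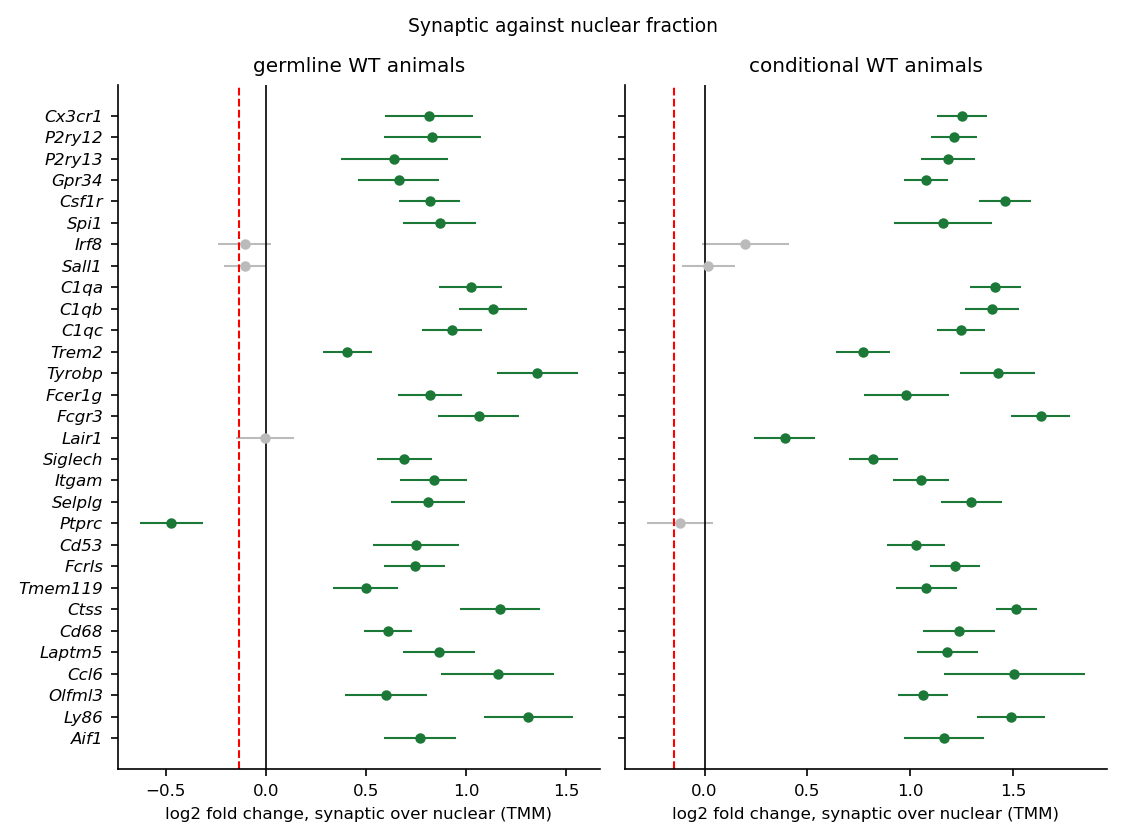
Log2 synaptic to nuclear difference of each microglial gene under TMM scaling in germline WT and conditional WT animals. Points are fitted values, bars 1 SE, green points passed an adjusted p of 0.05 and the dashed line is the all-gene median. Most genes sit well above the dashed line, Sall1 and Irf8 pass in neither group, Ptprc is lower in germline WT and Lair1 passes in conditional WT. With total-count scaling, not drawn here, Lair1 lies below 0 in 4 of the 5 line and genotype groups, Trem2 in 3 and Tmem119 in germline WT.

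The complement chains rose together. Nuclear C1qa levels in germline WT ran from 26.7 to 65.2 CPM with a median of 37.7 (12 libraries), and synaptic levels from 39.8 to 82.8 with a median of 53.3 (11 libraries). In conditional WT mice C1qa was at 24.6, 25.1, 27.04 and 31.04 CPM in nuclei and 40.003, 43.9, 54.3 and 56.8 in the synaptic fraction. The germline groups overlapped, the conditional ones did not, and C1qa was higher in the synaptic library in 10 of 10 germline WT pairs under TMM and in 9 with total counts. The fitted differences were 1.02 ± 0.16 (log2 ± SE, 2.03-fold, adjusted p = 2.87e-05, edgeR) in germline WT and 1.41 ± 0.13 (2.67-fold, adjusted p = 6.8e-09) in conditional WT animals. C1qb (25.7, 35.9 and 66.5 CPM as lowest, median and highest nuclear, 37.3, 59.4 and 80.4 synaptic) and C1qc (24.4, 33.0 and 57.8 against 32.6, 49.5 and 59.8) overlapped in the germline line too. Their differences were 1.13 ± 0.17 and 0.93 ± 0.15 there, and all 3 chains rose in each of the 5 groups. In germline HET animals C1qa and C1qc, at 1.203 ± 0.22 and 1.17 ± 0.22, were with Fcer1g the members of smallest p.

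The receptors for fractalkine and purines also rose in all 5 groups under TMM, but with total counts the calls of Cx3cr1 and P2ry12 were lost in germline WT (0.31 and 0.33, adjusted p = 0.220 and 0.242) and germline HET (0.52 and 0.53, adjusted p = 0.150 and 0.188). Cx3cr1 ran from 40.4 to 146 CPM in germline WT nuclei (median 62.5) and from 65.6 to 106 in the synaptic fraction (median 87.9), with overlap, and was higher in the synaptic library of 8 of 10 animals under TMM and 7 with total counts. Conditional WT nuclei held 53.9, 55.3, 55.5 and 66.6 CPM of Cx3cr1 and synaptic libraries 87.9, 88.3, 90.1 and 104, without overlap. The differences were 0.81 ± 0.22 (adjusted p = 0.00348) and 1.25 ± 0.12 (adjusted p = 2.32e-08). P2ry12 followed the same course, at 36.9, 42.8, 44.1 and 44.7 CPM in conditional WT nuclei and 51.8, 62.9, 69.1 and 82.2 in synaptic libraries, again without overlap. Its differences were 0.83 ± 0.24 in germline WT, 1.21 ± 0.11 in conditional WT and 1.38 ± 0.10 in conditional HET animals. P2ry13 and Gpr34, a lysophosphatidylserine receptor, rose by 0.64 and 0.66 in germline WT.

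Csf1r and Spi1 rose under TMM, while the other nuclear regulators Sall1 and Irf8 did not pass the test in any group. With total counts Csf1r and Spi1 did not pass in germline WT (0.31 and 0.36, adjusted p = 0.0744 and 0.0758), and Sall1 and Irf8 were called lower there (both -0.61, adjusted p = 0.000277 and 0.0011). Csf1r was at 78.4, 83.3, 84.6 and 95.6 CPM in conditional WT nuclei and 144, 148, 154 and 192 in the synaptic fraction, and at 90.4 to 201 and 125 to 176 CPM in the germline line. The groups overlapped only in the germline line, and the differences were 1.46 ± 0.13 and 0.82 ± 0.15. In conditional HET and HOM animals Csf1r rose by 1.48 ± 0.11 and 1.24 ± 0.15. Spi1, at 1.38, 1.88, 2.09 and 2.67 CPM in conditional nuclei and 2.61, 2.71, 3.26 and 3.34 in synaptic libraries, overlapped by 1 nuclear library and had a difference of 1.16 ± 0.24 (0.87 ± 0.18 in germline WT). Sall1 in CPM was lower in conditional synaptic libraries (12.004, 14.7, 16.004 and 16.1) than in nuclear ones (20.4, 20.9, 21.4 and 23.1), and under TMM its difference was 0.02 ± 0.13 (adjusted p = 0.91). The CPM values did not overlap, yet the direction under TMM was not resolved and turned under other scalings. With total counts Sall1 was called lower in each of the 5 groups (-0.55 in conditional WT). Germline WT under TMM gave -0.10 ± 0.10 for Sall1 and -0.11 ± 0.13 for Irf8.

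Among activating receptors and adaptors, Tyrobp had the largest log2 difference of all members in germline WT, at 1.36 ± 0.20 (2.56-fold, adjusted p = 2.11e-05). Tyrobp encodes DAP12, the adaptor of Trem2. It was at 4.32, 4.53, 4.70 and 5.18 CPM in conditional WT nuclei and 6.79, 8.13, 9.38 and 9.83 in synaptic libraries, without overlap, and at 3.54 to 9.97 and 4.77 to 17.5 CPM in the overlapping germline groups. Its partner Trem2 had smaller values in the same test. Trem2 was at 10.6, 11.1, 11.4 and 11.8 CPM in conditional WT nuclei and 11.8, 12.2, 12.3 and 15.8 in synaptic libraries, and its medians in the germline line were 17.2 CPM in both fractions. It rose by 0.77 ± 0.13 in conditional WT and 0.41 ± 0.12 in germline WT (adjusted p = 0.00821), and did not pass in germline HET (0.31, adjusted p = 0.131) or conditional HOM animals (0.23, adjusted p = 0.217). With total-count scaling the germline WT value turned to -0.10 and Trem2 passed as higher in none of the 5 groups. Without HET female 3 it passed in germline HET (0.498, adjusted p = 0.0218). The Fc receptor genes Fcer1g and Fcgr3 rose in all 5 groups under TMM. Fcer1g had the smallest p in germline HET (1.36 ± 0.23, adjusted p = 8.61e-05), and Fcgr3 had 6.03 to 8.55 CPM in conditional WT nuclei, 13.4 to 17.2 in synaptic libraries and a difference of 1.63 ± 0.14.

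Among surface receptors, 6 of 8 rose in germline WT and 7 of 8 in conditional WT animals. Tmem119 was at 16.8, 17.2, 18.7 and 23.9 CPM in conditional WT nuclei and 24.03, 25.9, 29.1 and 29.3 in synaptic libraries, without overlap, and its difference was 1.08 ± 0.15. In germline WT, where it ran from 23.1 to 48.0 and from 25.2 to 40.6 CPM, the difference was 0.50 ± 0.16 (adjusted p = 0.0135), which with total counts was -0.0095 (adjusted p = 0.963). In germline HET its call (0.70, adjusted p = 0.0156) was lost without HET male 2 or HET male 3 (adjusted p = 0.0832 and 0.0893). Ptprc was the 1 member that fell, by 0.47 ± 0.16 in germline WT (adjusted p = 0.0148). Its nuclear CPM ran from 4.18 to 10.1 and its synaptic CPM from 2.61 to 7.44, it was higher in the synaptic library in 2 of 10 animals (0 with total counts), and it did not pass in the other 4 groups under TMM. With total counts Ptprc was called lower in each of the 5 groups. In conditional WT mice Ptprc was at 8.66, 9.35, 9.80 and 10.2 CPM in nuclei and 5.51, 5.55, 5.86 and 6.72 in synaptic libraries, without overlap in CPM, and its TMM difference was -0.12 (adjusted p = 0.539). Lair1 gave -0.00 in germline WT (adjusted p = 0.983, 9.86 to 16.3 CPM in nuclei and 5.18 to 12.5 in synaptic libraries), had 0.39 in conditional WT (adjusted p = 0.0279) and 0.62 in conditional HET, and did not pass in germline HET or conditional HOM animals. The conditional WT call was lost with DESeq2, RLE and upper quartile scaling (adjusted p = 0.0768, 0.0735 and 0.163) and without WT male 2 or WT female 1 (adjusted p = 0.151 and 0.157). With total counts Lair1 was -0.18 there, 0.06 in conditional HET and called lower in germline WT (-0.51, adjusted p = 0.00749).

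The lysosomal genes Ctss, Cd68 and Laptm5 rose in all 5 groups under TMM. Ctss, whose promoter match is printed above, had the smallest p of all members in conditional WT. It was at 45.4, 46.3, 46.4 and 53.6 CPM in nuclei and 74.7, 89.3, 94.7 and 114 in synaptic libraries. The groups did not overlap and the difference was 1.52 ± 0.10 (2.86-fold, adjusted p = 4.15e-10). It also had the smallest p in conditional HET (1.39 ± 0.09) and HOM animals (1.13 ± 0.11). In germline WT it ran from 24.6 to 103 and from 51.4 to 105 CPM, with overlap, and rose by 1.17 ± 0.20 with 10 of 10 animals higher in the synaptic library under TMM and 8 with total counts. Of the secreted and cytoplasmic genes, the least abundant, Ccl6, rose by 1.16 ± 0.28 in germline WT (0.389 to 1.57 CPM in nuclei, 0.625 to 1.65 in synaptic libraries) and by 1.51 ± 0.34 in conditional WT (0.398, 0.558, 0.729 and 0.962 against 0.933, 1.06, 1.23 and 1.80 CPM). In conditional HOM animals Ccl6 did not pass (0.64, adjusted p = 0.157). Olfml3, Ly86 and Aif1 rose in all 5 groups under TMM. In CPM the germline WT medians of Aif1 were close, at 3.68 in nuclei and 3.67 in the synaptic fraction.

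**Figure D4:**
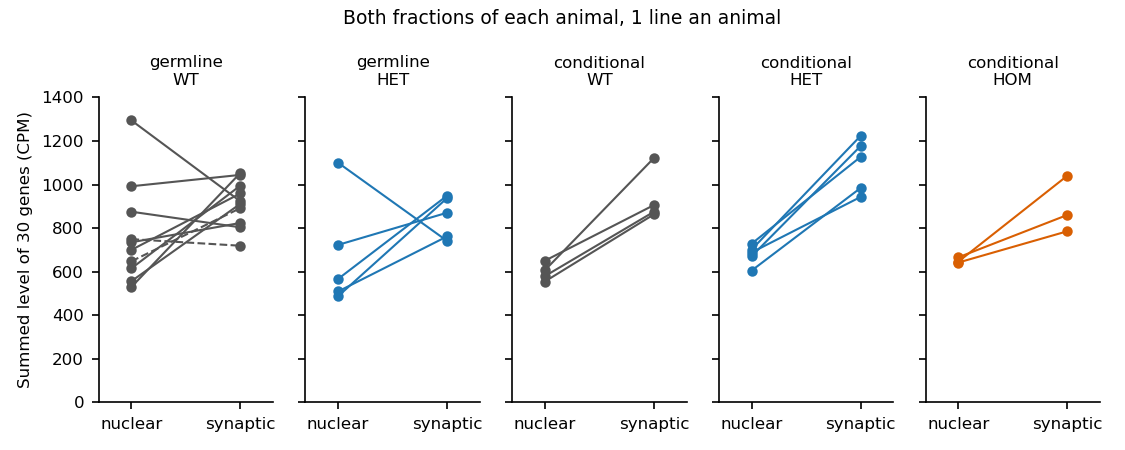
Summed level of the 30 microglial genes in the nuclear and the synaptic library of each animal, in CPM, joined by a line per animal; dashed lines are the 2 WT males whose synaptic library has a nuclear profile. The lines rise in all 12 conditional animals and fall in 4 of the 15 germline animals.

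Single animals differed in how the 2 fractions compared. In all 12 conditional animals the summed CPM of the 30 genes was higher in the synaptic library, by 1.22 to 1.85 times. In the germline line the ratio was below 1 in 4 animals, namely HET female 3 (1100.1 CPM in nuclei, 741 in the synaptic library, ratio 0.674), WT female 4 (1294 and 923, 0.713), WT female 1 (0.918) and the male of nuclear library WT male 3 and synaptic library WT male 2 (0.960). The highest ratio, 1.99, belonged to the animal of nuclear library WT male 7 and synaptic library WT male 6, whose nuclear library has sex markers against its label. The 2 animals with the lowest ratios had mitochondrial shares of 13.4% and 14.96% in their synaptic libraries, within a range of 3.87% to 14.96% over the germline synaptic libraries. WT female 5 also had 13.4% in its synaptic library, with a ratio of 1.05. The part of the mitochondrial share in the ratio was not tested.

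Other gene lists were measured across the same fractions, under TMM and, as a check added after the data were seen, with total counts. Neuronal markers rose for 12 of 12 in both lines (medians 1.21 in germline and 1.52 in conditional WT, 11 of 12 in each with total counts), among them Syp and Slc17a6 by 2.13 and 1.77 in conditional WT. Endothelial and mural markers fell for 21 of 21 in both lines (medians -3.64 and -3.10), among them Rgs5 and Ly6c1 by 3.01 and 5.19 in conditional WT. Interferon-response genes fell for 11 of 12 in each line (medians -2.69 and -2.22), with Ifitm3 first, and 8 of 10 nuclear-retained RNAs fell in each. Antigen presentation genes fell for 9 of 11 in germline WT and 3 of 11 in conditional WT, Psmb9 by 2.81 in the latter (11 and 8 with total counts), where 35.2% and 32.9% of all genes fell. Of the markers of border macrophages, 0 of 9 rose and 7 fell in germline WT (median -1.09), and 2 rose and 3 fell of 10 in conditional WT, where Mrc1 rose by 0.75 and Lyve1 by 1.396. Markers of other blood cells had 0 higher and 6 lower of 9 in germline WT. These lists kept the sign of their medians with total counts. Of 43 further microglial genes, 17 rose and 6 fell in germline WT (median 0.22) and 28 rose and 2 fell in conditional WT (median 0.67), where the lysosomal proteases Ctsb and Lgmn rose by 1.94 and 1.43. With total counts 5 were higher and 17 lower in germline WT (median -0.29) and 15 and 9 in conditional WT (0.10). Disease-associated microglial genes rose for 7 of 12 and 8 of 12, where 29.3% and 28.6% of all genes rose, with Timp2 and Lpl of smallest p in conditional WT. With total counts 3 were higher and 2 lower in germline WT (median 0.02), and 4 and 4 in conditional WT (-0.12). Of 10 genes listed as signals to microglia, 4 rose and 4 fell in germline WT, near the shares of all genes (29.3% and 35.2%). In conditional WT 5 rose and 1 fell, where 28.6% of all genes rose and 32.9% fell, with Cd200 at 1.48 and Sirpa at 1.4997. With total counts 2 were higher and 4 lower in germline WT, and 5 and 4 in conditional WT. Astrocyte markers rose for 9 of 11 and 8 of 11 and oligodendrocyte markers for 9 of 12 and 10 of 12 under TMM. With total counts 4 astrocyte markers were higher and 1 lower in germline WT, and 1 and 4 in conditional WT (median -0.14). Oligodendrocyte markers then had 3 higher and 0 lower in germline WT, and 5 and 2 in conditional WT. How far these cell types and RNAs share in the microglial differences was not tested.

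The study asks what loss of Chd8 does to the cortical transcriptome, and none of the 30 genes passed the test for genotype in any fraction of either line. In germline whole cortex 0 members were called, where 0.334% of 17074 genes were (32 higher and 25 lower in HET by edgeR, 55 and 42 by DESeq2, and 1579 with an unadjusted p below 0.05). The member median was 0.03 (log2), and the members' lowest adjusted p was 0.422. Spi1 ran from 2.53 to 6.13 CPM in WT and from 3.61 to 6.81 in HET (0.26 ± 0.10, unadjusted p = 0.0194), and P2ry12 from 34.8 to 52.3 and from 39.5 to 57.7 CPM (0.15 ± 0.06, p = 0.0223). Both groups overlapped, and these were the 2 members with an unadjusted p below 0.05. Median C1qa was 40.5 CPM in WT and 42.7 in HET, and C1qb 41.4 and 44.0. Below 0, the members of smallest p were Irf8 (-0.12), Tmem119 (-0.04) and Siglech (-0.03). Within the 2 batches of the labels the member median was -0.01 (CHD807, 13 of 30 above 0) and 0.09 (CHD80456, 26 of 30).

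In the germline nuclear fraction 28 of 30 members lay below 0 in HET (median -0.14, beside 0.01 for all genes). Of the members 0 were called, where 0.0151% of 19912 genes were (1 higher and 2 lower, 5 and 13 by DESeq2, 1470 at an unadjusted p below 0.05). Lair1 ran from 9.86 to 16.3 CPM in WT and from 7.71 to 13.2 in HET (-0.27 ± 0.10, p = 0.00821), and Fcer1g from 4.78 to 8.29 and from 3.62 to 7.20 (-0.34 ± 0.12, p = 0.00957). Cx3cr1 had medians of 62.5 CPM in WT and 50.6 in HET and a difference of -0.17. All groups overlapped, and the lowest adjusted p was 0.477. The members above 0 were Aif1 and Fcgr3, both at 0.01. Without the 2 libraries whose sex markers go against the label 26 members lay below 0 (median -0.11) and 0 were called, as were 0 of all genes. In the same comparison 21 of 21 endothelial and mural markers lay below 0 (median -0.40), as did 12 of 12 interferon-response genes (-0.32) and 37 of 43 further microglial genes (-0.18); their part in the microglial values was not tested.

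In the germline synaptic fraction 0 members were called, where 0% of 17178 genes were by edgeR (1881 at an unadjusted p below 0.05, 15 higher and 2 lower by DESeq2). The member median was -0.03 with 11 above 0. Ccl6 ran from 0.625 to 1.65 CPM in WT and from 0.777 to 2.25 in HET (0.38), Sall1 from 12.7 to 21.4 and from 14.6 to 19.8 (-0.11), and Trem2 from 12.4 to 23.5 and from 10.8 to 15.5 (-0.11). The groups overlapped for each. C1qa was at -0.13, P2ry12 at 0.10 and Cd68 at 0.13, and the lowest adjusted p was 0.677. Without the 2 libraries with a nuclear profile the member median was -0.11 with 24 below 0 and 0 called, while 76 genes rose and 66 fell over all genes. With batches by first date it was -0.22, again with 24 below 0. The sign of this median depended on the setting, and other settings placed it above 0.

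In the germline cytosol 0 members were called (0% of 18454 genes, 606 at an unadjusted p below 0.05, 0 higher and 4 lower by DESeq2). Cx3cr1 was at 16.9, 18.8, 19.5, 21.997 and 22.1 CPM in WT and from 18.8 to 34.4 with a median of 26.1 in HET (0.36 ± 0.14, p = 0.0258). P2ry13 ran from 2.19 to 6.19 and from 3.14 to 8.00 CPM (0.40), and Itgam, the complement receptor chain CD11b, from 1.13 to 3.49 and from 1.49 to 4.52 (0.38). All overlapped, and 23 of 30 members lay above 0 (median 0.08). Fcer1g (-0.19), Lair1 (-0.08) and Cd68 (-0.08) were the members of smallest p below 0.

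In conditional whole cortex, with Cre against without, 0 members were called (0% of 21798 genes, 671 at an unadjusted p below 0.05, 2 higher and 2 lower by DESeq2), and 0 members had an unadjusted p below 0.05. C1qa ran from 42.3 to 92.1 CPM without and from 51.7 to 115 with Cre (0.25), C1qc from 43.5 to 73.4 and from 51.4 to 78.6 (0.16), and the surface receptor gene Fcrls from 28.9 to 53.7 and from 35.1 to 57.3 (0.17). The groups overlapped, the member median was 0.11 and the lowest adjusted p was 0.882. Sall1 (-0.15), Laptm5 (-0.12) and Cx3cr1 (-0.10) had the smallest p below 0.

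**Figure D5:**
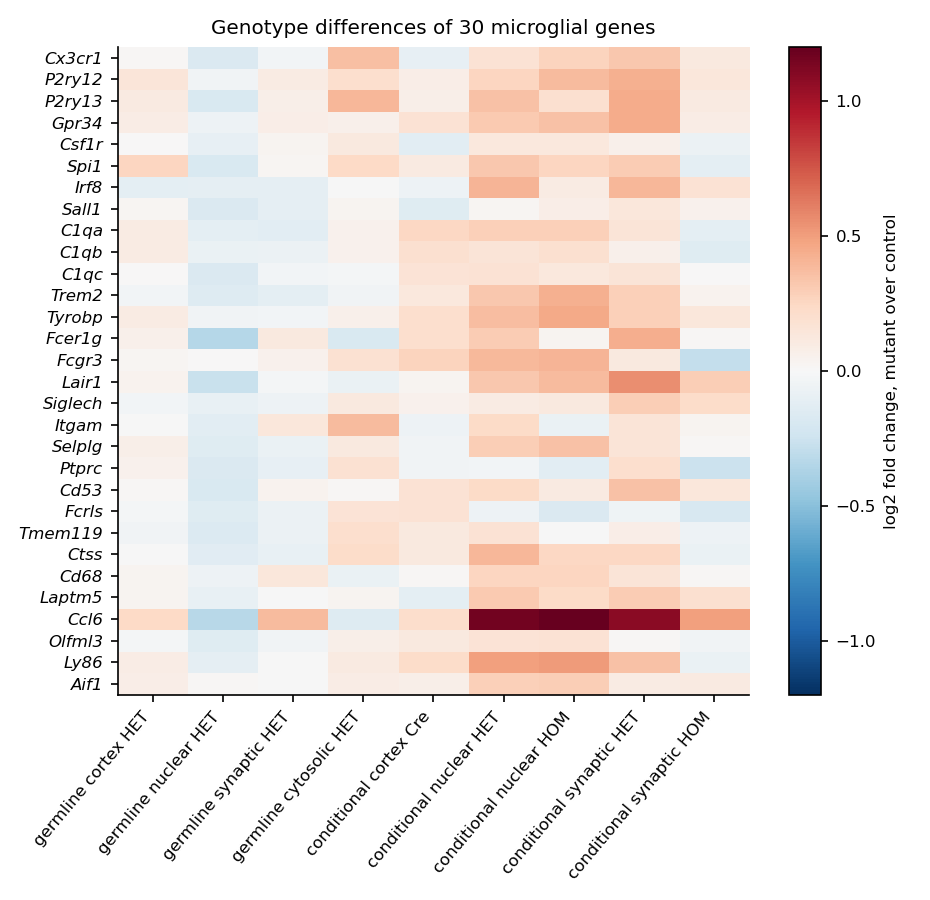
Heat map of the log2 genotype difference of each microglial gene in the 9 genotype comparisons, under TMM scaling. No cell passed an adjusted p of 0.05; the conditional nuclear HET and HOM and synaptic HET columns are mostly above 0, and the germline nuclear column mostly below 0.

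In the conditional fractions the microglial genes lay mostly above 0 in 3 of 4 comparisons without a call. These 3 comparisons share WT libraries or animals, so they are not independent of each other. Members can also vary together between libraries, so the counts above 0 are descriptive. The all-gene medians were 0.01 in HET nuclei, -0.01 in HOM nuclei and -0.005 in HET synaptic libraries. The share of all genes above 0 was not counted. In nuclei of HET mice 28 of 30 members lay above 0 (median 0.29), 11 had an unadjusted p below 0.05 and 0 were called (0% of 21133 genes, 940 at an unadjusted p below 0.05, 0 higher and 3 lower by DESeq2). Ctss was at 45.4, 46.3, 46.4 and 53.6 CPM in WT and from 54.9 to 74.9 with a median of 59.4 in 6 HET libraries, so the groups did not overlap (0.40 ± 0.11, p = 0.00204, adjusted p = 0.933). Ccl6 was at 0.398 to 0.962 CPM in WT and 0.861 to 1.80 in HET (1.15 ± 0.33, p = 0.00311), and Ly86, which encodes a partner of a Toll-like receptor homologue, at 4.41 to 6.42 and 6.43 to 9.77 (0.50 ± 0.17, p = 0.0104). Ccl6 overlapped and Ly86 just did not. How many of all genes separate between such small groups was not counted, so non-overlap here is only a description. Fcrls (-0.06) and Ptprc (-0.03) were the 2 members below 0. Endothelial and mural markers lay below 0 for 20 of 21 (median -0.39) in the same comparison; their part was not tested.

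In nuclei of HOM mice, which share the WT libraries with the HET comparison, 26 members lay above 0 (median 0.24), 8 had an unadjusted p below 0.05 and 0 were called (0% of 21133 genes, 2448 at an unadjusted p below 0.05, 2 higher and 25 lower by DESeq2). P2ry12 was at 36.9, 42.8, 44.1 and 44.7 CPM in WT and 48.9, 49.3 and 55.7 in HOM, without overlap (0.38 ± 0.11, p = 0.00212, adjusted p = 0.426). Trem2 was at 10.6, 11.1, 11.4 and 11.8 CPM in WT and 13.3, 13.7 and 15.5 in HOM (0.42 ± 0.15, p = 0.00976, edgeR). Ccl6 was at 1.13, 1.22 and 1.83 in HOM (1.21 ± 0.39, p = 0.00628, edgeR). Both lay above all WT libraries, but the share of all genes that separate so was not counted. Of all genes, 11.58% had an unadjusted p below 0.05 in edgeR's test. Fcrls (26.2, 29.2 and 31.3 CPM against 32.4 to 38.2 in WT, -0.18), Ptprc (-0.13) and Itgam (-0.08) had the smallest p below 0. Endothelial and mural markers lay below 0 for 21 of 21 (median -0.77) and neuronal markers above 0 for 12 of 12 (0.40) beside these values, and their part was not tested.

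In the synaptic fraction of conditional HET mice 29 of 30 members lay above 0 (median 0.27), 13 had an unadjusted p below 0.05 and 0 were called (0% of 17505 genes, 765 at an unadjusted p below 0.05, 0 by DESeq2). Gpr34 was at 16.8, 19.1, 20.6 and 20.9 CPM in WT and 22.8, 25.3, 25.8, 26.9 and 30.2 in HET (0.44 ± 0.10, p = 0.000265, adjusted p = 0.995). Ccl6 was at 0.933, 1.06, 1.23 and 1.80 CPM in WT and 1.62, 1.78, 2.35, 3.603 and 3.97 in HET (1.08 ± 0.28, p = 0.0012). P2ry12 stood at 51.8 to 82.2 CPM in WT and 69.3 or more in HET (0.42 ± 0.11, p = 0.00123). Gpr34 did not overlap between the groups, whereas Ccl6 and P2ry12 did. The share of all genes without overlap was not counted here either. Fcrls (42.2 to 63.8 CPM in HET, 49.5 to 64.4 in WT) was the 1 member below 0 (-0.05). Of the further microglial genes 40 of 43 lay above 0 (median 0.17).

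The synaptic fraction of HOM mice was set against the same WT libraries. The member median was 0.03 with 19 above 0, 0 members had an unadjusted p below 0.05, and 0 were called (0% of 17505 genes, 868 at an unadjusted p below 0.05, 0 higher and 2 lower by DESeq2). Lair1 was at 8.18, 8.29, 10.2 and 11.7 CPM in WT and 10.5, 11.3, 11.3, 11.8 and 12.97 in HOM (0.30), and Ccl6 at 1.05, 1.65, 1.81, 1.87 and 1.89 in HOM (0.49). Both overlapped with WT. Siglech, a sialic acid binding lectin, was at 0.22, and below 0 stood Fcgr3 (13.4 to 17.2 CPM in WT, 8.36 to 15.9 in HOM, -0.29), Ptprc (-0.26) and Fcrls (-0.19). The difference between HET and HOM was not tested, and nuclear and synaptic libraries of this line come largely from the same animals. Without the animal with disagreeing labels the member medians were 0.29 and 0.24 in HET and HOM nuclei and 0.27 and 0.04 in the synaptic fraction, with 0 members called in each.

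Whether the synaptic to nuclear difference itself changed with genotype was tested as an interaction within animals. In the germline line 28 of 30 members lay above 0 (median 0.21, beside -0.07 for all genes). Of the 30 members 0 had an unadjusted p below 0.05 and 0 were called (0% of 21515 genes, 1552 at an unadjusted p below 0.05, 0 by DESeq2). The smallest p above 0 belonged to Ccl6 (0.73), Cd53 (0.55) and Fcer1g (0.54), and Trem2 (-0.10) and Aif1 (-0.12) lay below 0. Without the 2 libraries with a nuclear profile 21 lay above 0 (median 0.13), and without the animals with discordant sex markers 28 did (median 0.30). Neuronal markers had a median of 0.41 and nuclear-retained RNAs of -1.23 in this interaction, and their part was not tested. For conditional HET against WT the member median was -0.00 with 15 above 0 and 0 called (0% of 21577 genes, 624 at an unadjusted p below 0.05, 0 by DESeq2); Ptprc (0.26), Lair1 (0.22) and Siglech (0.21) had the smallest p above 0, and Fcgr3 (-0.26), Olfml3 (-0.13) and Ctss (-0.12) below it. For conditional HOM against WT 26 members lay below 0 (median -0.23, beside -0.02 for all genes). Of the 30 members 6 had an unadjusted p below 0.05 and 0 were called (0% of 21577 genes, 1032 at an unadjusted p below 0.05, 0 by DESeq2). Fcgr3 (-0.68 ± 0.21, p = 0.0048), Ly86 (-0.67 ± 0.25, p = 0.0132) and Trem2 (-0.54 ± 0.20, p = 0.0133) had the smallest p in edgeR's test, each with an adjusted p of 0.892. Siglech (0.13), Itgam (0.06) and Irf8 (0.03) lay above 0. Neuronal markers lay below 0 for 12 of 12 (median -0.27), and their part was not tested.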

How the data were processed

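The libraries were made from poly(A) RNA and read in pairs, on separate sequencers for different tables, per the labels' protocols. The raw counts per gene are those the authors deposited; the submitters' processing notes name STAR 2.5.4b, featureCounts 2.0.0, GRCm38 and GENCODE M21. Per the file headers, the conditional cortex table used featureCounts 1.6.0, Ensembl annotation 95 and no option for strand. A symbol was matched to 54723 of 54838 gene IDs. Of 127 labelled libraries 123 were analysed, and 4 cytosolic ones were not analysed here. Identical counts stood in 2 tables for 16 libraries, used once. The lowest chi-square per degree of freedom between libraries of 1 group was 4.66, so none were merged. CPM was computed on each library's sum of deposited gene counts. Lengths are the exon lengths in bases given with the germline cortex counts.

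Tests were edgeR 4.0.16 quasi-likelihood F tests (R 4.3.3, TMM scaling, filterByExpr, Benjamini-Hochberg over all genes tested, adjusted p under 0.05). The standard error is the log2 difference divided by the root of F. Genotype fits held sex as a covariate, and conditional genotypes were fitted together. The germline cortex fit also held the batch of the labels. Germline nuclear and synaptic fits held batch labels grouped by the month of their first date, and the germline cytosolic fit held no batch. Fits of synaptic against nuclear held the animal as a block, matched by the animal number in the library names. Simulated counts with known changes were put through the genotype tests of germline cortex, germline nuclei, conditional HET nuclei and conditional HET synaptic libraries. The WT and HET tests of synaptic against nuclear were also checked so, with no change simulated in HET. The other comparisons and the interactions were not checked on simulated data. Alternatives were DESeq2 1.42.0, RLE, upper quartile and total-count scaling, no filter, other covariates or blocks, and leaving out libraries. In the paired check, libraries with the same number and sex deviated together (all correlations over 0.1) only for conditional HET and WT, from 0.206 to 0.349 in nuclei and from 0.1001 to 0.484 in the synaptic fraction (4 pairs each).

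The members and lists were chosen with earlier results of these data known. The members named were Cx3cr1, P2ry12, Csf1r, C1qa, C1qb, C1qc, Tyrobp, Trem2, Ctss, Tmem119, Lair1, Ccl6, Spi1, Sall1 and Ptprc, plus the 3 of smallest p in each direction of each comparison, and up to 2 called genes of smallest p per other list.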

Additional observations from a re-analysis of the deposited data

Results flagged for a closer look

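In groups of 4 to 10 libraries, 176 sets of values were searched for a library far from the others; 11 met that rule (Dixon's test at 95%), which chance alone meets in about 1 of 20 sets. Synaptic library WT female 1 of the conditional line was the highest of 4 in the summed level of the 30 genes (1121 CPM, the others 863 to 906), in Cx3cr1 (104 CPM, the others 87.9 to 90.1) and in Trem2 (15.8 CPM, the others 11.8 to 12.3). Synaptic library HOM male 2 was the lowest of 5 in Ctss (66.8 CPM, the others 89.1 to 91.8) and in Ccl6 (1.05 CPM, the others 1.65 to 1.89). In conditional nuclei, C1qa was lowest in HET male 2 (21.8 CPM, the others 31.6 to 37.3), Cx3cr1 highest in WT male 1 (66.6 CPM, the others 53.9 to 55.5) and Ctss highest in WT female 1 (53.6 CPM, the others 45.4 to 46.4). In the germline line, C1qb was lowest in cytosolic WT male 1 (6.75 CPM, the others 9.48 to 10.5), Lair1 highest in cytosolic WT female 3 (8.87 CPM, the others 6.96 to 7.48) and Tyrobp highest in nuclear HET female 3 (9.34 CPM, the others 3.17 to 6.204).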

How the results depend on the processing

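For genotype and for its interaction with compartment, 0 members were called in any of 254 refits, with a lowest adjusted p of 0.0533. Of 448 counts of called members in refits that left out 1 library or animal, 447 stayed within 1.5 times. The exception was members lower in conditional HOM animals (0 to 1, the 1 without HOM male replicate 1). Counts for genotype and interaction were 0 throughout, so their stability only repeats the lack of calls. All 224 medians moved by less than the spread between libraries or animals, a wide limit that leaving out 1 of them can hardly exceed. Under the other alternatives 262 counts and 130 medians stayed so, and 8 counts and 5 medians did not. With total-count scaling, members higher and lower between synaptic and nuclear were 8 and 4 (germline WT), 10 and 3 (germline HET), 23 and 2 (conditional WT), 25 and 2 (conditional HET) and 17 and 2 (conditional HOM), with medians of 0.31, 0.43, 0.61, 0.62 and 0.43; the all-gene medians moved with them. With all libraries and no animal block, 1 member was lower in germline HET. With batches by first date the germline synaptic genotype median was -0.22, and the cause was not tested.

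Between fractions, without the animal as a block, the same animals gave 26 members higher and 1 lower in germline WT (median 0.80). They gave 25 higher in germline HET (0.99) and 27, 27 and 24 in the conditional groups. The replicate block below is another one, used in genotype fits. It joined libraries of the same sex and replicate number across genotypes. With the replicate block in the paired conditional HET to WT comparisons, the nuclear and synaptic medians were 0.27 and 0.24 and 0 members were called. With the replicate block, whose numbers did not pair the germline libraries by the check, the member median was -0.24 in germline nuclei (29 below 0), 0.11 in the germline synaptic fraction (25 above 0) and 0.23 in the germline cytosol (28 above 0, 8 at an unadjusted p below 0.05), where 15 of all genes were higher and 4 lower. With the block, signs turned for members near 0: Fcgr3 (-0.17, germline nuclear), C1qa (0.0084, germline synaptic), Fcer1g (0.013), Lair1 (0.012) and Cd68 (0.052, all germline cytosol), Fcrls (0.0027) and Ptprc (0.025, conditional nuclear HET) and Itgam (0.0041, conditional nuclear HOM).

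Other signs that turned were also of values that had passed no test, apart from Trem2, Tmem119 and Lair1 between fractions. For genotype these were Irf8 (0.0064) and Siglech (0.011) in germline cortex batch CHD80456, Aif1 (-0.0021 with total counts, -0.0011 with genotype alone) and Fcgr3 (-0.0011 and -0.0076) in germline nuclei, and Fcrls (0.0047, genotype alone) in conditional synaptic HET. Between fractions, total counts gave Trem2 -0.10 and Tmem119 -0.0095 in germline WT, Trem2 -0.29 and Lair1 -0.25 in germline HET, Lair1 -0.18 and Sall1 -0.55 in conditional WT, Sall1 -0.42 and Ptprc -0.42 in conditional HET, and Trem2 -0.29 and Lair1 -0.14 in conditional HOM. Lair1 in germline WT was 0.010 with no filter, 0.0075 without the animal block and 0.012 with all libraries. Sall1 was 0.016 in germline HET with no filter and 0.020 in conditional HOM with all libraries. In conditional WT Sall1 was -0.066 with DESeq2, -0.066 with RLE and -0.13 with upper quartile scaling. Irf8 was -0.022 in the conditional HOM interaction with no filter.

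Leaving out 1 library or animal at a time gave sign changes over these ranges: for genotype, Aif1 -0.060 to 0.085 and Fcgr3 -0.19 to 0.090 (germline nuclei), C1qa -0.22 to 0.082 (germline synaptic), Fcrls -0.12 to 0.016 and Ptprc -0.088 to 0.024 (conditional nuclear HET); between fractions, Lair1 -0.070 to 0.10 (germline WT), Irf8 -0.15 to 0.00084 and Sall1 -0.084 to 0.085 (germline HET), Sall1 -0.072 to 0.10 (conditional WT), and Sall1 -0.21 to 0.044 and Trem2 -0.039 to 0.39 (conditional HOM); in the interactions, Trem2 -0.20 to 0.092 (germline), Itgam -0.085 to 0.20 and Irf8 -0.18 to 0.23 (conditional HOM). Calls of single members also changed: Ptprc was lower in conditional HOM without HOM male replicate 1 (-0.61, adjusted p = 0.0296), Spi1 was lost there without HOM male replicate 2 (0.54, adjusted p = 0.176), and Lair1 passed there without HET female replicate 2 (0.38, adjusted p = 0.047) and in germline HET without HET female replicate 3 (0.53, adjusted p = 0.043). At the lowest member counts, as for Ccl6 under 1 CPM, depth limits the precision.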
